A study of Mus musculus with 4 samples.

Results

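The 37 mouse genes described here encode cytosolic and mitochondrial heat shock proteins, their co-chaperones and the heat shock factors Hsf1 and Hsf2. They were taken as a fixed list of symbols, all 37 of which were found among the 35580 genes of the deposited tables. By general knowledge of the heat shock response, 16 were classed as inducible, 19 as constitutive or tissue-restricted and 2 as transcription factors. A filter on low counts kept 36 of the 37 members among 14185 genes tested, and the gene left out was Hspb6.

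RNA was sequenced from stromal vascular cells, the mixed non-adipocyte cells that remain when fat tissue is dissociated, after division into Mmp3-positive and Mmp3-negative cells. The tissue was subcutaneous fat of C57BL/6 mice with the WT genotype, in both groups. There were 2 Mmp3-positive and 2 Mmp3-negative libraries, numbered as set 1 and set 2 within each group. The labels named the separation of the cells only by a reagent code, and gave no treatment, sex, age or number of mice. Whether libraries came from separate animals was not stated, and p-values here measure only how far these libraries spread, which may be technical. RNA was extracted with a kit for formalin-fixed, paraffin-embedded material and sequenced strand-specifically after depletion of ribosomal RNA, per the labels' protocols.

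Heat shock proteins are molecular chaperones that bind unfolded proteins, keep them from aggregating and help them fold. Hsp70 proteins do this in cycles of ATP hydrolysis that Hsp40 (DnaJ) proteins start and nucleotide exchange factors such as Hsp110 and Bag proteins end, and Hsp90 takes over clients at a later stage. Under heat or other proteotoxic stress Hsf1 forms trimers, binds heat shock elements in DNA, which are inverted repeats of the unit GAA, and raises transcription of the inducible chaperones within minutes. Constitutive relatives such as Hspa8 and Hsp90ab1 are made in unstressed cells. Tissue dissociation is itself known to induce heat shock and immediate early genes.

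The letters of the promoter windows are shown first, because the members were separated by inducibility and the Hsf1 element is the sequence that inducible genes are known for. RefSeq windows on GRCm38.p6, running from 250 bases before to 50 bases after an annotated start, were available for 29 of the 37 members. The genes with no window here were Hspa8, Hspa9, Hspa13, Hsp90aa1, Hsp90ab1, Hspb2, Cryab and Hsf1. Each window was searched for a pair of opposed units, GAANNTTC or TTCNNGAA, which read the same on both strands and may overlap each other. Such a pair stood in 15.1% of the 32851 windows and, counting a gene once if any of its windows held it, in 17.0% of 27025 genes. Counted in the same way, it stood in 11 of 14 inducible genes, 3 of 14 constitutive genes and 0 of 1 factor genes. The inducible genes with a pair were Hspa1a, Hspa1b, Hsph1, Hspb1, Dnaja1, Dnajb4, Bag3, Chordc1, Fkbp4, Hspd1 and Hspe1, and the constitutive ones were Dnajb6, Hspb6 and Hspb8. A run of 3 alternating units was in 0.603% of all windows, in 0.662% of all genes and in 5 members, the inducible Chordc1, Hspd1, Hspe1 and Hsph1 and the constitutive Dnajb6. A match describes the letters in a window and is no measurement of binding.

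The windows of Hspa1a (chr17:34972107-34972406, minus strand) and Hspa1b (chr17:34959189-34959488, minus strand) carry the members that differed between the groups. Those of Hspe1 (chr1:55087898-55088197, plus strand) and Dnajb1 (chr8:83607925-83608224, plus strand) are set beside them as an inducible gene with 3 overlapping matches and an inducible gene with none. Capitals mark the matches, and the sequences run 5′ to 3′ along the gene's own strand.
Hspa1a: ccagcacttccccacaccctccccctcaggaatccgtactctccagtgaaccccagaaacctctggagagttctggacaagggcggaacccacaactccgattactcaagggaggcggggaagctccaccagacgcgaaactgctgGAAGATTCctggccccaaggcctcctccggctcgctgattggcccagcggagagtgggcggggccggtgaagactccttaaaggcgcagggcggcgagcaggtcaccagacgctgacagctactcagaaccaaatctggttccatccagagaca
Hspa1b: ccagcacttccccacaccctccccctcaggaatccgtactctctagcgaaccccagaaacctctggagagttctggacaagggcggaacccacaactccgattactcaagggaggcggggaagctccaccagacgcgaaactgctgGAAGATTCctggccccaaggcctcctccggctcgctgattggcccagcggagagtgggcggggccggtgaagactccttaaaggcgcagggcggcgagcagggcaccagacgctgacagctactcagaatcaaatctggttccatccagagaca
Hspe1: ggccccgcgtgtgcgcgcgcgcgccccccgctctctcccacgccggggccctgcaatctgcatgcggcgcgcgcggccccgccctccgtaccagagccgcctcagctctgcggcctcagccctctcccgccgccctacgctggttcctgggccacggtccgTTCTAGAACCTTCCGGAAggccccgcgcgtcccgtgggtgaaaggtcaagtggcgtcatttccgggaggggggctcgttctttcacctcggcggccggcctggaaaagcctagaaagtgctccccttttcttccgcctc
Dnajb1: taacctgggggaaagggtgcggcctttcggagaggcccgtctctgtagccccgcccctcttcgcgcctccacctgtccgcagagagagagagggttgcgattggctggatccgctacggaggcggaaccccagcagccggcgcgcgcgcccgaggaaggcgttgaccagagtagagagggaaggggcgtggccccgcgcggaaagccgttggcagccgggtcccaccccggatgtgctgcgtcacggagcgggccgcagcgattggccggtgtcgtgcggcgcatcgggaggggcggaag

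The Hspa1a and Hspa1b windows were identical at 296 of 300 positions, or 98.7%. In both, 1 match lay from 104 to 97 bases before the start. The Hspe1 window is shared with the 5′ end of Hspd1, which is transcribed in the other direction, and its 3 matches lay between 89 and 72 bases before the Hspe1 start.

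Estimated counts per library came to 19026779 and 20286221 in Mmp3-positive cells, against 18629081 and 17693755 in Mmp3-negative cells, so depth differed little between the groups. Mmp3, the gene that names the groups, was at 4161 and 3409 CPM in Mmp3-positive libraries and at 106 and 131 CPM in Mmp3-negative libraries, in the direction of the labels (edgeR adjusted p = 0.00793). CPM here are counts scaled to a common library size after TMM normalisation, and zero limits cover counting error only. Replicates were noisy: the median absolute log2 difference between the libraries of a group was 0.506 in Mmp3-positive and 0.815 in Mmp3-negative cells. At an adjusted p under 0.05, edgeR's quasi-likelihood test called 0.0141% of all genes lower and 0.00705% higher in Mmp3-positive cells, and the single gene called higher was Mmp3. The DESeq2 Wald test called 4.18% lower and 5.46% higher. All 10 stromal fibroblast markers had counts in every library, at very different levels. Col1a1 was the highest, at 6478 and 9772 CPM in Mmp3-positive and 5798 and 9317 CPM in Mmp3-negative libraries. Lum was the lowest, at 14.8 and 5.70 CPM in Mmp3-positive and 3.45 and 5.30 CPM in Mmp3-negative libraries. Of the 5 adipocyte markers, Cidec and Lep were at 0 in all 4 libraries. Plin1 had 8.84 and 9.27 CPM in Mmp3-positive and 9.06 and 20.8 CPM in Mmp3-negative libraries. Adipoq and Retn had 50 and 39 counts in Mmp3-positive replicate 1, and 0 or 1 in each other library.

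The inducible Hsp70 genes Hspa1a and Hspa1b were the members that passed the test across all genes, and both fell in Mmp3-positive cells. They encode almost the same protein, the chaperone that rises most under heat shock. Hspa1a (ENSMUSG00000091971.3, chr17:34969190-34972156, minus strand) and Hspa1b (ENSMUSG00000090877.3, chr17:34956436-34959238, minus strand) are neighbouring protein-coding genes on GRCm38. Hspa1a had 355 and 408 CPM in Mmp3-positive libraries, against 2665 and 2402 CPM in Mmp3-negative libraries. The groups were far apart, the closest libraries differing 5.89-fold, and the means were 381 ± 37.4 CPM in Mmp3-positive and 2534 ± 186 CPM in Mmp3-negative cells (SD, n = 2 each). Its log2 fold change was -2.73 with a standard error (SE) of 0.16, and the edgeR adjusted p was 0.0250. Hspa1b had 460 and 455 CPM in Mmp3-positive libraries, against 2655 and 2263 CPM in Mmp3-negative libraries. Here too no library of one group reached the other, with a gap of 4.92-fold between the closest, and the log2 fold change was -2.43 (SE 0.15, edgeR adjusted p = 0.0273). Among all 35580 genes Hspa1a ranked 377 and 307 by CPM in Mmp3-positive libraries and 24 and 30 in Mmp3-negative libraries.

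How many reads belong to each gene of the pair is less certain than their sum. Their open reading frames were identical at 1918 of 1929 aligned positions (99.4%), while the 3′ parts after the reading frame were 47.3% identical and shared 0% of their words of 31 bases. Hspa1a took 43.6% and 47.3% of the pair's counts in Mmp3-positive libraries and 50.1% and 51.5% in Mmp3-negative libraries, so both copies contributed about evenly in each. Summed, the pair had 815 and 863 CPM in Mmp3-positive libraries, against 5320 and 4664 CPM in Mmp3-negative libraries. The means were 839 ± 34.0 CPM in Mmp3-positive and 4992 ± 464 CPM in Mmp3-negative cells (SD, n = 2 each), 5.95-fold higher in Mmp3-negative cells, and set 1 and set 2 gave 6.53-fold and 5.41-fold taken alone. As 1 gene the pair had a log2 fold change of -2.57 (SE 0.15, edgeR adjusted p = 0.0236). Per transcript length the groups were also apart, at 390 and 367 TPM in Mmp3-positive libraries and 1473 and 2266 TPM in Mmp3-negative libraries.

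The direction of the pair sum held in all 12 alternative settings, and the call did not. The edgeR adjusted p was 0.0735 when Mmp3-positive replicate 1 was left out and 0.0831 when Mmp3-positive replicate 2 was, and the call was also lost with an offset for transcript length (adjusted p = 0.0999) and on the log2(TPM + 1) scale with limma (adjusted p = 0.451).

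**Figure D1:**
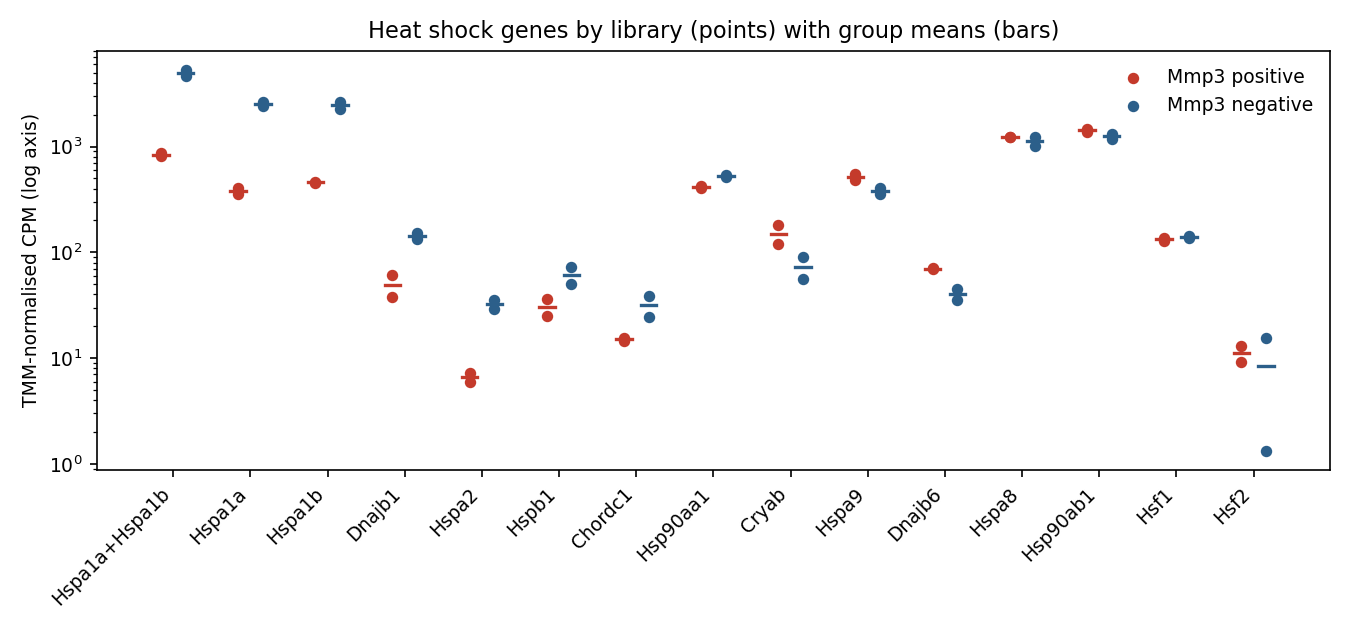
TMM-normalised CPM on a log axis of the Hspa1a and Hspa1b sum and of 14 members in each library, with Mmp3-positive libraries in red left of Mmp3-negative libraries in blue, points for libraries and bars for the mean of 2. The summed pair stands at 815 and 863 CPM in red, below 5320 and 4664 CPM in blue, while Hspa8 and Hsf1 lie close together in both groups.

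The summed immediate early genes and the mural, macrophage and endothelial marker sums were also lower in Mmp3-positive libraries. The immediate early genes Fos, Fosb, Jun, Junb, Egr1, Atf3, Ier2, Arc, Nr4a1 and Dusp1, whose transcription starts within minutes of a stimulus, summed to 2406 and 2423 CPM in Mmp3-positive and 3817 and 4221 CPM in Mmp3-negative libraries. Of these 10 genes, 9 had a log2 fold change below 0, 9 did not overlap between the groups in the lower direction (17.3% of all genes tested), 0 passed the edgeR test (lowest adjusted p = 0.178), 7 had an unadjusted p under 0.05 in that direction (3.25% of all genes) and 8 were lower by DESeq2 (4.18%). Mural markers, of pericytes and smooth muscle, summed to 97.0 and 96.2 CPM in Mmp3-positive and 749 and 657 CPM in Mmp3-negative libraries, with 9 of 10 below 0 in log2 fold change and Lmod1 at 0 in both Mmp3-positive libraries. Macrophage markers summed to 37.4 and 34.1 CPM in Mmp3-positive and 277 and 145 CPM in Mmp3-negative libraries, with 9 of 9 tested below 0, Adgre1 at 0 in both Mmp3-positive libraries and Mrc1 at 0 in both Mmp3-negative ones. Endothelial markers summed to 111 and 110 CPM in Mmp3-positive and 286 and 197 CPM in Mmp3-negative libraries, with 7 of 8 tested below 0, Cldn5 at 0 in both Mmp3-positive libraries and Emcn at 0 in both Mmp3-negative ones. Stromal fibroblast markers lay the other way, with 9 of 10 above 0 and a median log2 fold change of 0.42. Of the 10 stromal markers, 6 did not overlap in the higher direction (22.5% of all genes tested). EdgeR called 0 of them higher (0.00705% of all genes) and DESeq2 called 2 (5.46%). Their sums overlapped, at 18662 and 25579 CPM in Mmp3-positive and 15210 and 22872 CPM in Mmp3-negative libraries. Within each set the Mmp3-positive sum was the higher. Sums of adipocyte markers and of T and B cell markers also overlapped between the groups. Skeletal muscle and Schwann cell marker sums, at low levels, were lower in Mmp3-positive libraries without overlap. The part of these genes and cells in the fall of Hspa1a and Hspa1b was not tested. In bulk samples, fewer cells of a type and less RNA per cell cannot be told apart.

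Apart from the pair, the summed level of the heat shock genes differed little between the groups. All 37 members together had 6515 and 6704 CPM in Mmp3-positive libraries, against 10517 and 10345 CPM in Mmp3-negative libraries. Without Hspa1a and Hspa1b the sums were 5700 and 5841 CPM in Mmp3-positive and 5196 and 5681 CPM in Mmp3-negative libraries. The gap between the groups therefore lay in the pair, whose share of the members' counts was 12.5% and 12.9% in Mmp3-positive and 50.6% and 45.1% in Mmp3-negative libraries. The other 14 inducible members summed to 1643 and 1912 CPM in Mmp3-positive and 1800 and 1884 CPM in Mmp3-negative libraries, which overlap. Constitutive members summed to 3909 and 3791 CPM in Mmp3-positive and 3238 and 3659 CPM in Mmp3-negative libraries. These sums did not overlap, but the difference of their means was smaller than the gap between the Mmp3-negative libraries.

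**Figure D2:**
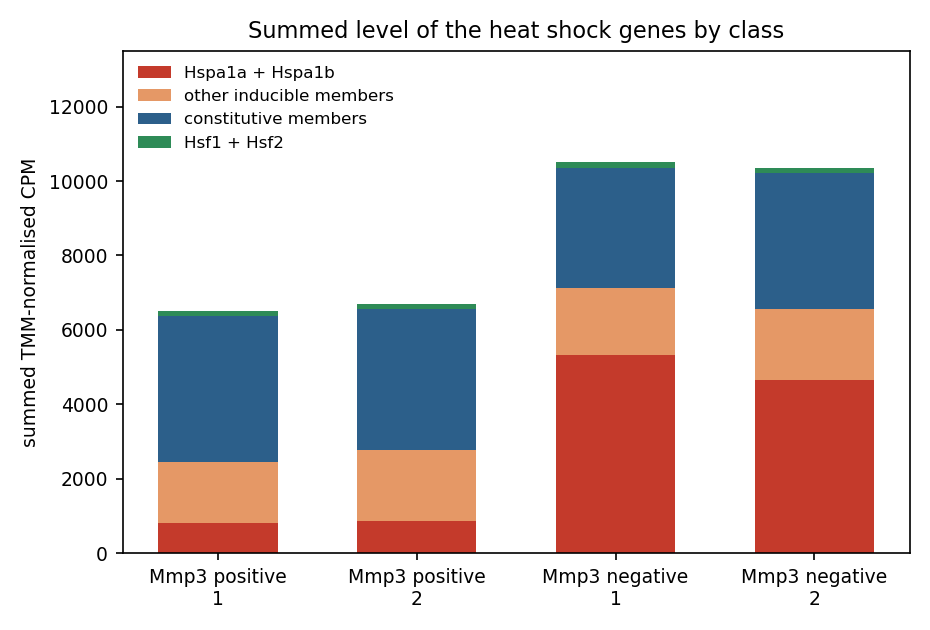
Summed TMM-normalised CPM of the heat shock genes in the 2 Mmp3-positive and, right of them, the 2 Mmp3-negative libraries, stacked by class. The Hspa1a and Hspa1b segment is 815 and 863 CPM in Mmp3-positive and 5320 and 4664 CPM in Mmp3-negative libraries, and the segments above it are of like height in all 4.

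Gene by gene, the inducible class leaned a little below 0, and less so without the pair, while the constitutive class did not. The median log2 fold change was -0.22 over the 16 inducible members, with 10 below 0 and 6 above. Without the pair it was -0.08 over 14 members, with 8 below 0 and 6 above. Over the 18 tested constitutive members it was -0.02, with 9 below and 9 above. Over all 14185 genes tested the median was 0.02, with 6934 below 0 and 7251 above. Of the 10 members that make up a narrow inducible class (Hspa1a, Hspa1b, Hsph1, Hsp90aa1, Hspb1, Cryab, Dnajb1, Dnajb4, Bag3 and Chordc1), 8 were below 0 and the median was -0.72. These medians are descriptions of lists chosen with earlier results known and carry no test. Under other settings with the same 16 members the inducible median ran from -0.38 with the length offset to -0.08 on the log2(TPM + 1) scale. The median of all genes tested also moved, from 0.006 with the length offset to 0.29 on the log2(TPM + 1) scale. With 1 library left out the inducible median was -0.37 to -0.11.

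By call, 2 of 36 tested members were lower in Mmp3-positive cells and 0 higher with edgeR, beside 0.0141% and 0.00705% of all genes. The 2 members, Hspa1a and Hspa1b, were the only genes called lower, so the 0.0141% consists of them. With the DESeq2 Wald test 6 members were lower, beside 4.18% of all genes, and 2 were higher, beside 5.46%. The 2 higher are near the share of all genes. At an unadjusted edgeR p under 0.05, 5 members were lower, beside 3.25% of all genes, and 3 were higher, beside 5.62%. The groups did not overlap in CPM for 11 of the 36 members in the lower direction, beside 17.3% of all genes tested, and for 6 in the higher direction, beside 22.5%, and they overlapped for 19. Among the 11 lower members, 7 were inducible, 3 constitutive and 1 was Hsf1.

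**Figure D3:**
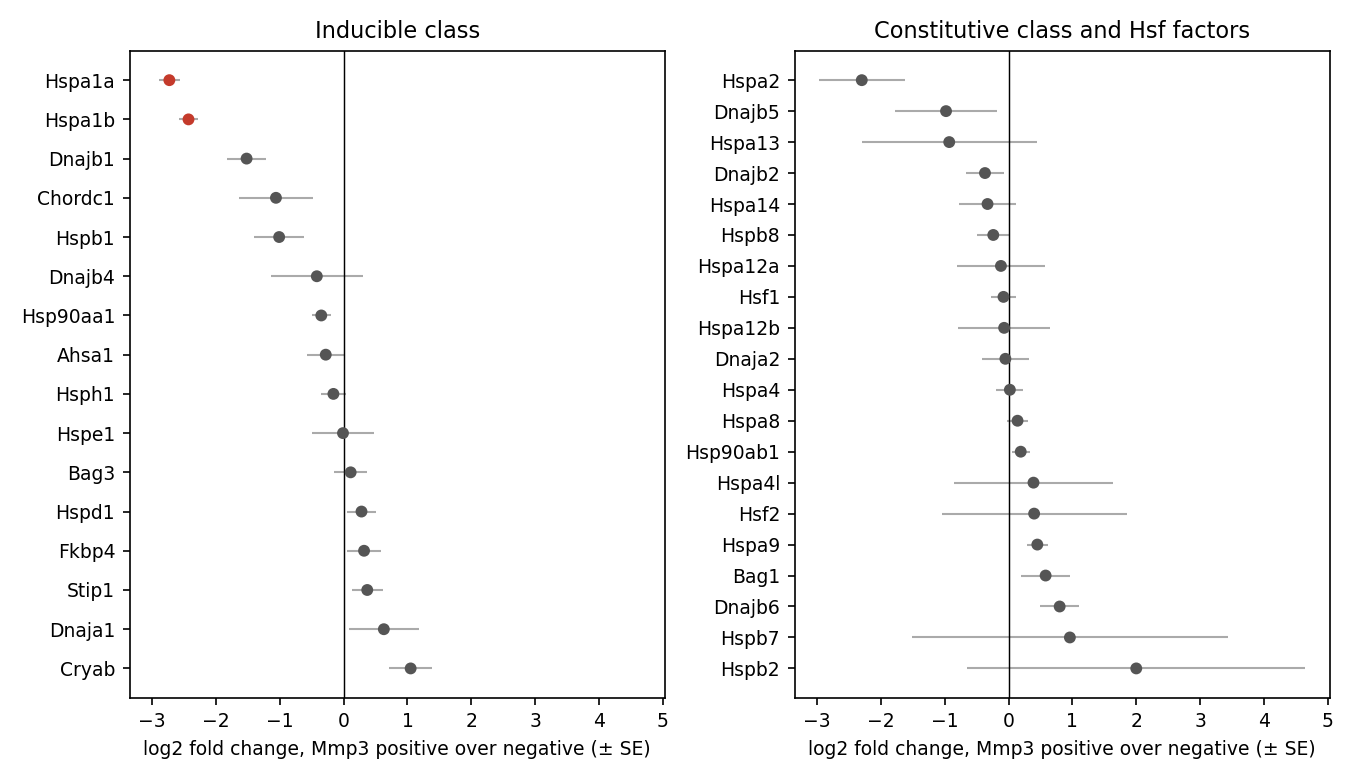
Log2 fold change of each tested member, Mmp3 positive over Mmp3 negative, with standard errors from edgeR, for the inducible class on the left and the constitutive class with Hsf1 and Hsf2 on the right. Red points mark Hspa1a (-2.73) and Hspa1b (-2.43), the members past the test, and Hspb6 is not drawn because it was not tested.

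Among the other Hsp70 genes the most abundant overlapped between the groups. Hspa8, the constitutive cytosolic Hsp70 (Hsc70), had 1242 and 1219 CPM in Mmp3-positive and 1006 and 1229 CPM in Mmp3-negative libraries. Mmp3-negative replicate 2 reached the Mmp3-positive level, and the log2 fold change was 0.14 (SE 0.16). Per length, Hspa8 stood at 825 and 840 TPM in Mmp3-positive libraries, above the summed inducible pair at 390 and 367 TPM. In Mmp3-negative libraries the order was turned round, with Hspa8 at 392 and 1065 TPM and the pair at 1473 and 2266 TPM. The low Hspa8 TPM belongs to Mmp3-negative replicate 1, where TPM was low for other members too: Hsp90ab1 had 411 TPM there and 809 in Mmp3-negative replicate 2, and Hspa9 had 105 and 162. In that library the coding transcript Hspa8-202 was estimated at 169 counts and Hspa8-201 at 16397. In the others Hspa8-202 had 10256 and 11610 counts (Mmp3-positive) and 10076 (Mmp3-negative), and Hspa8-201 had 10850 and 9123 (Mmp3-positive) and 8260 (Mmp3-negative).

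Hspa2, a relative best known from male germ cells, had 5.89 and 7.23 CPM in Mmp3-positive libraries, against 29.3 and 35.3 CPM in Mmp3-negative libraries. The groups were apart by at least 4.06-fold between libraries, but the gene did not pass the edgeR test (log2 fold change -2.30, SE 0.67, adjusted p = 0.480), and it was called lower by DESeq2 (adjusted p = 2.36e-05). Its 2 listed transcripts were assigned differently in the groups. Hspa2-201 had 85.1 and 106 estimated counts in Mmp3-positive libraries and was listed at 0 in both Mmp3-negative ones. Hspa2-202 had 26.9 and 36.5 in Mmp3-positive libraries, against 544 and 613 in Mmp3-negative ones. Only 0.0681% of the 31-base words of Hspa1a occur in Hspa2. The remaining Hsp70 relatives were at low levels with wide errors. Among them, the distant family members Hspa12a and Hspa12b had log2 fold changes of -0.12 and -0.07, the microsomal Hspa13 (Stch) of -0.93 and the ribosome-associated Hspa14 of -0.33, with standard errors from 0.44 to 1.37 and overlapping groups.

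The Hsp110 genes encode nucleotide exchange factors of Hsp70, and none of the 3 passed edgeR or DESeq2 or had an unadjusted p under 0.05. Hsph1, the inducible one, had 122 and 139 CPM in Mmp3-positive and 143 and 148 CPM in Mmp3-negative libraries (log2 fold change -0.16, SE 0.20). The groups just missed each other. Hspa4 was at 0.02 and the low Hspa4l at 0.39 with a standard error of 1.24, both with overlapping groups. For Hspa4 this is the gene total, and its transcripts were assigned differently in the groups. The coding Hspa4-201 had 3254 and 4459 estimated counts in Mmp3-positive and 2070 and 2429 in Mmp3-negative libraries. Hspa4-203, a processed transcript not listed as coding, had 565.4 and 238.5 in Mmp3-positive and 1507 and 1648 in Mmp3-negative libraries.

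The cytosolic Hsp90 genes leaned in opposite directions, neither past the edgeR test. Inducible Hsp90aa1 had 406 and 421 CPM in Mmp3-positive libraries, against 516 and 538 CPM in Mmp3-negative libraries. The gap was small and the replicates tight, so that the groups did not overlap (log2 fold change -0.35, SE 0.15, edgeR adjusted p = 0.576; DESeq2 adjusted p = 0.00278). On the TPM scale the groups did overlap, at 479 and 370 TPM in Mmp3-positive and 256 and 618 TPM in Mmp3-negative libraries, and limma on log2(TPM + 1) gave 0.084. A transcript with a retained intron, Hsp90aa1-206, held 3046 and 3411 of its estimated counts in Mmp3-positive and 2901 and 2958 in Mmp3-negative libraries. Constitutive Hsp90ab1 had 1471 and 1379 CPM in Mmp3-positive and 1180 and 1324 CPM in Mmp3-negative libraries. These values did not overlap in CPM and did in TPM, with a log2 fold change of 0.19 (SE 0.14, edgeR adjusted p = 0.913).

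Small heat shock proteins hold unfolding proteins in a state from which Hsp70 can refold them, and their genes went different ways. Hspb1 (Hsp25 in mouse) had 24.8 and 36.0 CPM in Mmp3-positive libraries, against 50.4 and 72.5 CPM in Mmp3-negative libraries. The groups did not overlap in CPM and did in TPM, and the difference failed edgeR (log2 fold change -1.01, SE 0.39, adjusted p = 0.529) and passed DESeq2 (adjusted p = 0.0482). Cryab, which encodes αB-crystallin, had 121 and 180 CPM in Mmp3-positive libraries, against 55.7 and 90.4 CPM in Mmp3-negative libraries. It was the inducible member with the largest positive log2 fold change, 1.05 (SE 0.34), with groups apart in CPM and TPM, an edgeR adjusted p of 0.480 and a DESeq2 adjusted p of 0.0352.

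The reads of Cryab need care. Its gene model (chr9:50751325-50756636, plus strand) overlaps that of Hspb2 (chr9:50751078-50752354, minus strand), and the strand setting of the quantification is not given in any source used here, so reads from the overlap cannot be assigned with certainty. The transcript Cryab-205 had 1516 and 3532 estimated counts in Mmp3-positive and 75.0 and 864 in Mmp3-negative libraries. Cryab-202 had 788 and 13.1 in Mmp3-positive and 957 and 703 in Mmp3-negative libraries. As estimated, the higher gene total in Mmp3-positive cells lay in Cryab-205. The split between these transcripts varied widely within each group, so which of them differed is uncertain. Hspb2, a small heat shock protein of muscle, had 44 and 91 counts in Mmp3-positive and 0 and 30 in Mmp3-negative libraries. Hspb7, of heart and muscle, had 177 and 123 counts in Mmp3-positive and 0 and 139 in Mmp3-negative libraries. With standard errors of 2.65 for Hspb2 and 2.47 for Hspb7 on the log2 scale, neither passed a test, and the Mmp3-negative libraries differed from each other. Hspb6 (Hsp20) had 0 counts in both Mmp3-positive libraries and 0 and 172 in the Mmp3-negative ones. A count of 0 allows up to 1.58e-05% and 1.48e-05% of the counts in Mmp3-positive replicates 1 and 2, and up to 1.61e-05% in Mmp3-negative replicate 1. Hspb8, a partner of Bag3 in clearing misfolded proteins, had a log2 fold change of -0.24 (SE 0.25).

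Of the 7 Hsp40 genes, Dnajb1 had the largest difference and 0 passed the edgeR test across all genes. Dnajb1 (Hsp40, ENSMUSG00000005483.10, chr8:83608193-83612653) starts the ATP hydrolysis of Hsp70 and is induced with it under heat shock. It had 38.1 and 60.7 CPM in Mmp3-positive libraries, against 133 and 151 CPM in Mmp3-negative libraries. The groups were apart by 2.19-fold to 3.96-fold in CPM between libraries, and they did not overlap in TPM. Its log2 fold change of -1.52 (SE 0.31) had the smallest p of the members after the pair, and it did not pass edgeR (adjusted p = 0.480) and passed DESeq2 (adjusted p = 1.84e-05). With 1 library left out its log2 fold change ran from -1.90 to -1.23 and its edgeR adjusted p from 0.0377 to 1. It passed only without Mmp3-negative replicate 1, where 98 genes in all were called lower and 234 higher. Its window above held no match of the motif.

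Dnajb6, which suppresses aggregation of polyglutamine proteins, had 70.7 and 69.6 CPM in Mmp3-positive libraries, against 45.3 and 35.6 CPM in Mmp3-negative libraries. The groups did not overlap in CPM and did in TPM (log2 fold change 0.80, SE 0.31, edgeR adjusted p = 0.525, DESeq2 adjusted p = 0.0571). The other Hsp40 genes did not pass either test. Log2 fold changes were 0.63 for Dnaja1, -0.05 for Dnaja2, -0.37 for Dnajb2, -0.42 for Dnajb4 and -0.98 for Dnajb5, and of these the groups were apart only for Dnajb2. Dnajb4 varied widely within groups, from 13.0 to 40.7 CPM in Mmp3-positive and from 22.7 to 49.1 CPM in Mmp3-negative libraries.

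None of the 6 co-chaperone genes passed edgeR or DESeq2, or had an unadjusted p under 0.05. Chordc1, an Hsp90 partner that is strongly heat-inducible, had 15.5 and 14.6 CPM in Mmp3-positive libraries, against 24.7 and 38.2 CPM in Mmp3-negative libraries. The groups did not overlap, at a low level (log2 fold change -1.06, SE 0.58, edgeR adjusted p = 0.762). Stip1 (Hop), which links Hsp70 to Hsp90, was at 0.37 with groups apart in the other direction. Bag3, a heat-inducible exchange factor that carries clients to autophagy, had 152 and 180 CPM in Mmp3-positive and 186 and 123 CPM in Mmp3-negative libraries. These overlap, with a log2 fold change of 0.11 (SE 0.26). Log2 fold changes were -0.28 for Ahsa1, the activator of the Hsp90 ATPase, 0.32 for the Hsp90 immunophilin Fkbp4 and 0.58 for Bag1, all with overlapping groups.

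No mitochondrial chaperone gene passed the edgeR test, and 1 of 3, Hspa9, had an unadjusted p under 0.05. Hspa9 (mortalin), the Hsp70 that pulls proteins into the matrix, had 545 and 485 CPM in Mmp3-positive libraries, against 402 and 353 CPM in Mmp3-negative libraries. Its groups were apart in CPM and TPM, and the log2 fold change of 0.45 (SE 0.16) failed edgeR (adjusted p = 0.487) and passed DESeq2 (adjusted p = 0.0349). Hspd1 (Hsp60), the matrix chaperonin, had 251 and 289 CPM in Mmp3-positive and 258 and 187 CPM in Mmp3-negative libraries, with a log2 fold change of 0.28 (SE 0.22). Hspe1 (Hsp10), its lid, was at -0.01 (SE 0.48). Both overlapped between the groups in CPM. The Hspe1 window shown above overlaps an Hspd1 window on the opposite strand, which holds the same 3 motif matches. The other Hspd1 window held 0. The Hspd1 and Hspe1 gene models overlap head to head, so reads at their 5′ ends carry the same uncertainty as those of Cryab.

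Neither heat shock factor gene passed a test. Hsf1, the main activator of the response, had 136 and 129 CPM in Mmp3-positive and 143 and 136 CPM in Mmp3-negative libraries. These gene totals all but touch (log2 fold change -0.08, SE 0.20). Coding transcripts were estimated to hold 58.7% of Hsf1 counts in each Mmp3-positive library, against 35.5% and 36.3% in the Mmp3-negative ones. The leading Hsf1 transcript changed between libraries, so this split is uncertain. Hsf2, a relative that forms mixed trimers with Hsf1, had 13.1 and 9.22 CPM in Mmp3-positive and 15.6 and 1.33 CPM in Mmp3-negative libraries. The Mmp3-negative libraries enclose the Mmp3-positive ones, and its standard error was 1.45. Coding transcripts held 79.5% and 100% of Hsf2 counts in Mmp3-positive and 0% and 34.9% in Mmp3-negative libraries. Hsf1 is activated as a protein, by trimer formation and phosphorylation, which RNA levels do not measure.

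**Figure D4:**
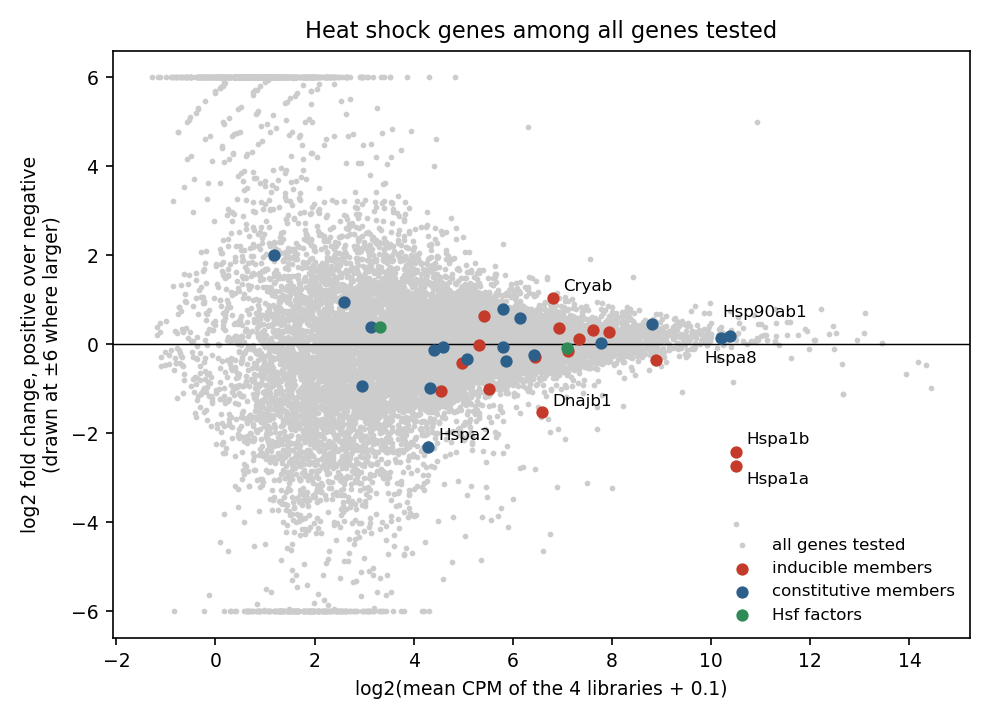
Log2 fold change, Mmp3 positive over Mmp3 negative, against log2 of mean CPM plus 0.1, for all 14185 genes tested (grey) and the members (coloured by class), with values beyond 6 drawn at the edge. Hspa1a and Hspa1b lie far below 0 among abundant genes, where few genes lie so low, while Hspa8 (0.14) and Hsp90ab1 (0.19) lie close to 0 at a like level.

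Precision depended on abundance. Of the 25 tested members with a log2 CPM of at least 5, 17 had a log2 fold change within 0.5 of 0, and the median standard error of all 25 was 0.26. The 11 members below that level had a median standard error of 0.80. Most members had several listed transcripts, 187 in all. Of the 26 with counts on more than 1 transcript, 11 had the same leading transcript in all 4 libraries.

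Chaperone genes outside the list were taken as 33 symbols, of which 32 were found. Of these 32, 0 passed the edgeR test, beside 0.0141% of all genes lower and 0.00705% higher. At an unadjusted edgeR p under 0.05, 0 were lower, beside 3.25% of all genes, and 1 was higher, beside 5.62%. DESeq2 called 1 lower, beside 4.18%, and 1 higher, beside 5.46%. The DESeq2 counts are near the shares of all genes. The median log2 fold change was 0.03, beside 0.02 over all genes. The TRiC chaperonin, a ring that folds actin and tubulin, had a median of -0.01 over 7 subunits, and its subunit Tcp1 had 71.3 and 65.0 CPM in Mmp3-positive and 84.7 and 112 CPM in Mmp3-negative libraries. Further co-chaperones of Hsp70 and Hsp90 had a median of -0.01 over 17 genes, and among them Bag6 had 330 and 317 CPM in Mmp3-positive and 294 and 259 CPM in Mmp3-negative libraries. Hsp90b1 (Grp94), the Hsp90 of the endoplasmic reticulum, had 886 and 845 CPM in Mmp3-positive libraries, against 610 and 690 CPM in Mmp3-negative libraries. Its groups did not overlap (log2 fold change 0.41, SE 0.15, edgeR adjusted p = 0.480, DESeq2 adjusted p = 0.0184).

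Hspa1l, the Hsp70 relative closest to the pair, had 1.47 and 0.255 CPM in Mmp3-positive libraries, against 11.7 and 11.0 CPM in Mmp3-negative libraries. It went the way of the pair without passing edgeR (log2 fold change -3.70, SE 1.77, adjusted p = 0.665), and DESeq2 called it lower (adjusted p = 0.0348). Since 12.1% of the 31-base words of Hspa1a also occur in Hspa1l, and the pair was far more abundant, its counts are uncertain. Serpinh1 (Hsp47), the abundant collagen chaperone, had 1212 and 1246 CPM in Mmp3-positive and 1092 and 1186 CPM in Mmp3-negative libraries. Its groups did not overlap, and the log2 fold change was 0.11 (SE 0.14).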

How the data were processed

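The submitters' processing notes name kallisto 0.45.0 and the build GRCm38. For 115270 transcripts in each of 4 libraries, the authors deposited estimated counts, TPM values and effective lengths, per the file headers. Transcript set, strand setting and trimming are not given in the sources used here.

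Transcripts were matched by identifier to GENCODE M21. The 1690 unmatched ones held 0.729% to 2.08% of the counts of a library and were left out. Estimated counts and the deposited TPM were summed per gene, and counts were rounded to whole numbers. Genes kept by filterByExpr (minimum count 10) were scaled by TMM and tested with edgeR 4.0.16 (R 4.3.3), quasi-likelihood, two-sided, no covariate, Benjamini-Hochberg over all 14185 genes, threshold 0.05, 2 residual degrees of freedom. Hspa1a and Hspa1b were also fitted as 1 summed gene. Standard errors (SE) were taken as the absolute log2 fold change divided by the root of edgeR's F. The tests were tried on simulated counts.

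The members, their classes, the other lists and the tests were chosen with earlier results of these data known. Values in every library are given for members past the threshold, for the 10 with the smallest p and for the 3 of each class with the highest mean TPM. Values of a few other members, and transcripts, were added after they were seen. Of the other chaperone genes, the 4 with the smallest p and the 2 with the highest mean TPM were taken, of which 1 is not reported here. Further marker lists gave sums in Mmp3-positive replicates 1 and 2, then Mmp3-negative replicates 1 and 2, of 8.05, 3.82, 19.0 and 1.27 CPM (T and B cells), 11.6, 17.1, 35.3 and 58.4 CPM (skeletal muscle), 23.9, 15.4, 42.6 and 36.8 CPM (Schwann cells) and 13.5, 9.27, 9.06 and 20.9 CPM (adipocytes). Motifs were searched in RefSeq promoter windows.

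Alternatives were a replicate block for the set number, the Wald test of DESeq2 1.42.0, its size factors in the edgeR fit, no filter on counts, each library left out, an offset for effective transcript length, protein-coding genes only, limma 3.58.1 on log2(TPM + 1) with a pseudocount of 1, pseudogene counts added to their parent, and other class limits. With a library left out, its lone partner is assumed to vary as the other group does. Python 3.11.15, pandas 2.3.3 and matplotlib 3.10.9 were used for sums and plots.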

Additional observations from a re-analysis of the deposited data

Results flagged for a closer look

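Transcripts that matched no gene of the annotation were left out of every comparison. In Mmp3-negative replicate 1 they took up 2.08% of its estimated counts, the largest share of the 4 libraries, beside 0.809% and 0.995% in the Mmp3-positive libraries and 0.729% in Mmp3-negative replicate 2.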

How the results depend on the processing

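Of 432 values of single members under the alternatives, 381 kept direction and side of the threshold, 8 lost the call, 7 gained it and 36 changed sign. The Hspa1a and Hspa1b sum kept its direction, from -2.66 to -2.48 with 1 library left out, and it was not called under the length offset (-2.52), by limma on log2(TPM + 1) (-2.27) or without either Mmp3-positive library. Members called lower numbered 2, but 6 with DESeq2, 0 with the length offset, 0 with limma and 0 to 3 with 1 library left out, and those called higher numbered 2 with DESeq2. The median of the inducible class was -0.38 with the length offset, -0.72 for the narrow class, -0.08 with limma and -0.37 to -0.11 with 1 library left out. That of the constitutive class was 0.14 with limma, 0.077 with the narrow inducible class and -0.12 to 0.16 with 1 library left out, and that of the other chaperone genes was 0.30 with limma. The median of all genes was 0.02, but 0.29 with limma, 0.12 with the block and up to 0.17 with 1 library left out. Across all genes, 23 were called lower and 4 higher with no count filter, and 116 lower and 237 higher without Mmp3-negative replicate 2. The cause was not tested.

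Over all genes tested, the correlation of same-set deviations from the group means was 0.0281 over 2 pairs. Noisy genes of low count weigh as much in it as abundant ones, so it cannot show whether the sets were pairs. With a replicate block for the sets the Hspa1a and Hspa1b sum was at -2.57 (adjusted p = 0.0103), Hspa1a and Hspa1b stayed the members called, and 4 genes in all were lower.

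Signs changed for the members that follow, none of them called. With limma values became 0.084 for Hsp90aa1, -0.34 for Dnaja1, 0.35 for Hspe1, -0.04 for Hspa4, 0.059 for Hspa12a, 0.054 for Hspb8, 0.39 for Dnaja2, 0.15 for Dnajb5 and 0.24 for Hsf1. With the length offset values became -0.63 for Dnaja1, 0.023 for Hspe1, -0.32 for Hspa4, -0.16 for Hspa4l and 0.21 for Dnaja2. Hspa4 was at -0.03 with DESeq2 and its size factors, and Hspe1 at 0.078 with the block. With 1 library left out, ranges crossed 0 for Dnaja1 (-0.092 to 1.11), Dnajb4 (-1.47 to 0.25), Bag3 (-0.16 to 0.43), Hspe1 (-0.44 to 0.60), Hspa4 (-0.14 to 0.19), Hspa4l (-0.34 to 0.87), Hspa8 (-0.003 to 0.29), Hspa12a (-0.87 to 0.36), Hspa12b (-0.79 to 0.63), Hspb7 (-0.047 to 10.2), Dnaja2 (-0.34 to 0.30), Dnajb5 (-1.60 to 0.12) and Hsf2 (-0.48 to 3.06). With 2 libraries a group, members with large standard errors allow only large differences to be called.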
